A study of Mus musculus with 19 samples.

Results

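The kidney transcripts of 32 cytokine, chemokine and adhesion molecule genes are described here in hypertensive and normotensive mice with and without a formylpeptide receptor agonist. The genes were taken by symbol from the deposited table, which holds 40413 genes. They comprise 9 interleukin or TNF genes (Il1a, Il1b, Il6, Tnf, Il10, Il15, Il18, Il33, Il34), the colony stimulating factor Csf1, 8 CC chemokines (Ccl2, Ccl3, Ccl4, Ccl5, Ccl6, Ccl7, Ccl8, Ccl12), 9 CXC and CX3C chemokines (Cxcl1, Cxcl2, Cxcl9, Cxcl10, Cxcl12, Cxcl13, Cxcl14, Cxcl16, Cx3cl1) and 5 adhesion molecules (Icam1, Icam2, Vcam1, Sele, Selp). Of the 32, 21 had enough counts to be tested and 11 did not.

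Adult mice of the inbred strains BPH/2J, which has high blood pressure, and BPN/3J, its normotensive control, received Cmpd17b or vehicle daily for 28 days. Cmpd17b is a small molecule that activates formylpeptide receptors, given intraperitoneally at 50 mg/kg/day. The 18 libraries used, each from 1 mouse, came from 4 BPH/2J mice given Cmpd17b, 5 BPH/2J mice given vehicle, 5 BPN/3J mice given Cmpd17b and 4 BPN/3J mice given vehicle. Another Cmpd17b-treated BPH/2J library was left out of the fits. Inbred strains differ throughout the genome, so that an effect of blood pressure and another strain difference cannot be told apart. The p-values measure the spread between the mice of these groups.

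Cytokines, chemokines and adhesion molecules act in sequence when leukocytes enter tissue. Cytokines such as tumour necrosis factor and interleukin 1 activate resident cells, chemokines direct leukocytes through receptors on their surface, and selectins, ICAM and VCAM proteins on endothelium hold them so that they leave the blood. In the kidney, tubular epithelium and vessel walls make several of these ligands, and macrophages and lymphocytes both respond to them and make more.

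Total counts in the 18 libraries ran from 21400119 to 40998662. The left-out library held heart muscle transcripts (Myh6 at 14200 CPM, counts scaled to a common library total) and almost no kidney epithelium, with 8 markers summing to 15.9 CPM against 6894 to 8641 CPM in the 18 others. BPH/2J vehicle replicate 2 stood apart among the 18. Its 17 leukocyte markers summed to 150 CPM against at most 59.9 CPM elsewhere, and its 7 tubular injury markers to 923 CPM against at most 789 CPM elsewhere. It was the highest library for 12 of the 32 genes (Il6, Ccl2, Ccl6, Ccl8, Ccl12, Cxcl1, Cxcl2, Cxcl10, Cx3cl1, Csf1, Icam1 and Vcam1), and values without it are given beside the main results it touches. Fpr1, Fpr2 and Fpr3, which encode the receptors of the compound, did not exceed 0.404 CPM in any library and were not tested.

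Promoter sequences are shown for Cxcl9, Cxcl10 and Icam1, which are among the members in which the strains did not overlap in 1 of the arms. Each line gives the 250 bases before the start of the gene, 5′ to 3′ on the gene's strand, from RefSeq on GRCm38.p6, an earlier build than the mm39 of the counts. Capitals mark matches, on either strand, to the NF-κB consensus or to the interferon element GAAANNGAA. Cxcl9 lies at chr5:92328080-92328329 (minus strand), Cxcl10 at chr5:92348890-92349139 (minus strand) and Icam1 at chr9:21015690-21015939 (plus strand).
Cxcl9: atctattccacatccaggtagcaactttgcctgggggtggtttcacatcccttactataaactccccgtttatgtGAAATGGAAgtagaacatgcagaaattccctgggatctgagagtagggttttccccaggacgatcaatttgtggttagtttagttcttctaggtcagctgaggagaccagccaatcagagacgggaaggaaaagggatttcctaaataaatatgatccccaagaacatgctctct
Cxcl10: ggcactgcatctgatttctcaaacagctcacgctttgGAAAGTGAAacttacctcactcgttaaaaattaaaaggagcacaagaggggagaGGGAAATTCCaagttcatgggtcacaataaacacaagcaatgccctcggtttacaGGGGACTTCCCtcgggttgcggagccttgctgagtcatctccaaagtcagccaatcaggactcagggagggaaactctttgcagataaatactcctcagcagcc
Icam1: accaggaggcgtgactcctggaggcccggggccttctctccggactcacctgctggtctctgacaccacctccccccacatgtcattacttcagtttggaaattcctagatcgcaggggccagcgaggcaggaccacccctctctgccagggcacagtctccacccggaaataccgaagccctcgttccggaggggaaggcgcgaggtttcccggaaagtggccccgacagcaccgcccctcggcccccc

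In Cxcl9 the capitals are 1 interferon element, 175 to 167 bases before the start. In Cxcl10 they are an interferon element 213 to 205 bases before the start, a κB match at 159 to 150 and a pair of κB matches that overlap, at 104 to 95 and 103 to 94. The Icam1 window holds neither motif, which says only that these letters are not in this window. Ccl6, Csf1 and Il34, whose strains also did not overlap in 1 arm, are not shown. The Ccl6 window held neither motif, that of Csf1 held a κB match, and Il34 had no promoter listed. Among 23 promoters listed for 22 of the 32 genes, 21.7% held a κB match (those of Csf1, Il6, Cxcl1, Cxcl2 and Cxcl10) and 21.7% held the interferon element (those of Sele, Cxcl9, Cxcl10, Ccl3 and Cxcl14). Among 32851 promoters of the same length the shares were 7.25% and 7.13%. A match is a description of sequence and not a binding site.

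The most abundant members for their length were chemokines. Per kilobase of exon, the mean level over the 18 libraries was 12.3 CPM for Cxcl16, the membrane-bound ligand of CXCR6, 10.8 CPM for Cxcl12, the ligand of CXCR4, and 9.07 CPM for Cx3cl1, the membrane-bound ligand of CX3CR1. Il34, a ligand of the macrophage receptor CSF1R, followed at 6.88 CPM per kilobase, and Il15, which sustains natural killer and memory T cells, at 5.96 CPM per kilobase. Icam1, a ligand of leukocyte integrins, was at 3.35 CPM per kilobase, Icam2, its relative on resting endothelium, at 2.74 CPM and Il18, a cytokine matured by the inflammasome, at 2.13 CPM, each per kilobase. The other tested members ranged from 0.0653 CPM per kilobase (Sele, the selectin of activated endothelium) to 2.02 CPM per kilobase (Cxcl14, a chemokine of epithelia).

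The libraries with the highest levels differed between members. In CPM not divided by length, Cxcl16 ran from 24.5 to 47.3 CPM over the 18 libraries, Cx3cl1 from 27.8 to 43.4 CPM and Cxcl12 from 61.9 to 151 CPM. The high Cxcl12 value was in BPH/2J vehicle replicate 4, which was also highest for Il18 (1.29 to 3.18 CPM over the libraries), Ccl7, Cxcl13 (0 to 0.731 CPM), Cxcl14 (1.44 to 9.70 CPM) and Sele (0 to 0.675 CPM). Il15 ran from 7.39 to 19.3 CPM, Il33 from 2.10 to 6.43 CPM and Il1b from 0.469 to 1.69 CPM, and all were highest in BPN/3J vehicle replicate 4. Ccl5 ran from 0.285 to 3.24 CPM and Icam2 from 3.53 to 7.18 CPM, highest in BPH/2J vehicle replicate 5. Cxcl1 ran from 0.114 to 3.05 CPM, highest in BPH/2J vehicle replicate 2. Of the 32 genes, 12 were highest in BPH/2J vehicle replicate 2, 6 in replicate 4 and 4 in replicate 5 of the same group.

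Il1a, Il6, Tnf and Il10 were at or near the limit of detection. Il10, which restrains inflammation, had 0 counts in all 18 libraries, where 3 counts of a library's total correspond to 0.0732 to 0.140 CPM. Il1a had 3 counts in all, Il6 had 11 counts, of which 9 were in BPH/2J vehicle replicate 2, and Tnf had 65 counts, at most 9 in a library. Intervals and limits of this kind cover counting error only. Among the chemokines, Ccl3 (42 counts over 18 libraries), Ccl4 (82), Ccl7 (37), Ccl8 (69), Ccl12 (56) and Cxcl2 (28) were too low to test, as was Selp, the selectin of platelets and endothelium (30 counts). Ccl3 and Ccl4 attract macrophages, Ccl7 and Ccl12 attract monocytes through CCR2, and Cxcl2 attracts neutrophils through CXCR2. Of the 69 Ccl8 counts, 38 were in BPH/2J vehicle replicate 2, as were 16 of the 28 Cxcl2 counts.

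**Figure D1:**
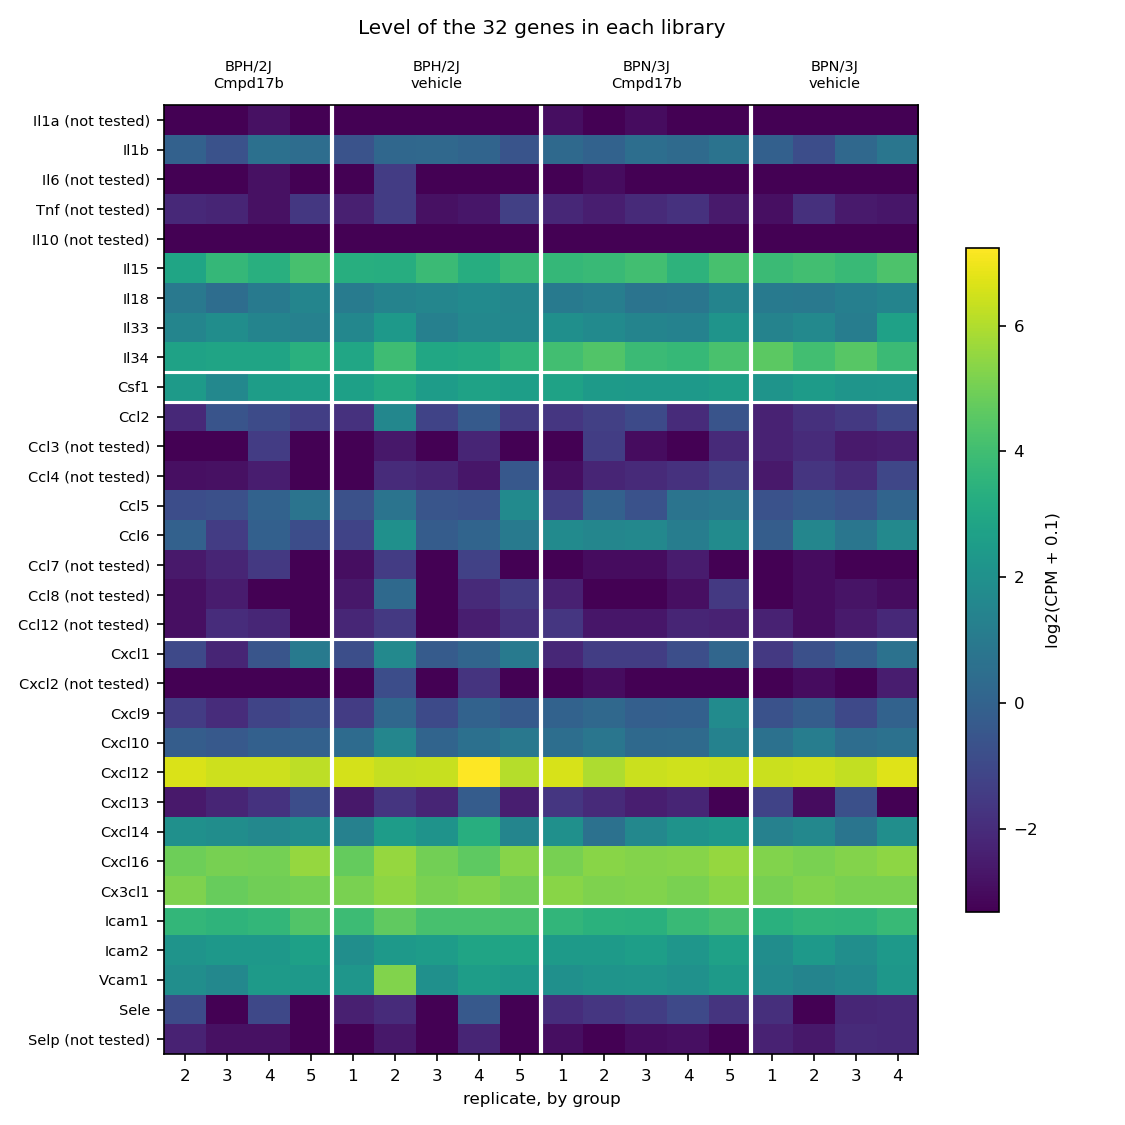
Level of each of the 32 genes (rows, grouped by role) in each of the 18 libraries (columns, grouped by strain and treatment), as log2(CPM + 0.1). The bright rows are Cxcl12, Cxcl16 and Cx3cl1, Il10 is at 0 throughout, and the column of BPH/2J vehicle replicate 2 is the brightest of 18 for 12 genes.

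Between the strains under vehicle, Il34 was lower and Icam1 higher in BPH/2J kidneys, and no other tested member was called. The 2 of 21 members called compare with 10.8% of 16421 genes tested (1766 genes), at an adjusted p under 0.05 by edgeR's quasi-likelihood test with Benjamini-Hochberg adjustment over all genes. The median log2 fold change was 0.18 over the 21 members and 0.04 over all genes.

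Il34 levels in BPH/2J vehicle kidneys were 7.41, 15.3, 7.76, 8.38 and 11.9 CPM, against 23.6, 16.5, 22.6 and 14.6 CPM in BPN/3J vehicle kidneys. Of the BPH/2J vehicle mice, replicate 2, at 15.3 CPM, stood within the BPN/3J range, and the others lay below it. The log2 fold change was −0.93 (SE 0.214, adjusted p = 0.00781), and it was −1.13 without BPH/2J vehicle replicate 2 (adjusted p = 0.00123). With all 19 libraries in the fit, the value was −0.93 and no longer passed (adjusted p = 0.0996). Csf1, the other ligand of CSF1R, was at 6.35, 8.53, 5.56, 6.78 and 5.88 CPM in BPH/2J vehicle kidneys, against 4.27, 5.48, 4.38 and 4.58 CPM in BPN/3J vehicle kidneys. Its groups did not overlap, with BPH/2J above, but the log2 fold change of 0.50 did not pass (SE 0.186, adjusted p = 0.0990). Without BPH/2J vehicle replicate 2 the Csf1 value was 0.39 (adjusted p = 0.214). Their receptor Csf1r, the defining receptor of macrophages, averaged 46.5 ± 7.45 CPM in BPH/2J vehicle kidneys and 45.2 ± 10.6 CPM in BPN/3J vehicle kidneys (SD, n = 5 and 4), a log2 fold change of 0.04 (adjusted p = 0.897).

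Icam1 levels were 15.1, 25.4, 17.8, 17.8 and 17.6 CPM in BPH/2J vehicle kidneys, against 10.3, 12.0, 11.6 and 13.7 CPM in BPN/3J vehicle kidneys. Every BPH/2J library lay above every BPN/3J library, and replicate 2 was the highest. Icam1 was higher by a log2 fold change of 0.65 (SE 0.190, adjusted p = 0.0324). It did not pass without BPH/2J vehicle replicate 2 (0.52, adjusted p = 0.0896), nor without BPN/3J vehicle replicate 1, 2 or 3 (adjusted p = 0.106, 0.0753 and 0.0842), nor with all 19 libraries (adjusted p = 0.0864). Icam1 and Csf1 were the members whose groups did not overlap, 2 of 21 where 13.6% of all genes had groups apart.

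Vcam1, the endothelial and tubular ligand of α4 integrins, was at 4.56, 38.0, 3.81, 5.74 and 5.02 CPM in BPH/2J vehicle kidneys, against 3.23, 2.61, 3.13 and 4.77 CPM in BPN/3J vehicle kidneys. The difference of 1.74 on the log2 scale (SE 0.552, adjusted p = 0.0508) came to 0.48 without replicate 2 (adjusted p = 0.199). Ccl2, the main attractant of monocytes, was at 0.181, 2.90, 0.336, 0.703 and 0.259 CPM in BPH/2J vehicle kidneys, against 0.101, 0.176, 0.236 and 0.375 CPM in BPN/3J vehicle kidneys. In both genes the same BPH/2J library was far above the rest. The Ccl2 log2 fold change was 1.96 (SE 0.725, adjusted p = 0.0976), and 0.73 without that library (adjusted p = 0.445). Without BPH/2J vehicle replicate 1 instead, Vcam1 (1.94, adjusted p = 0.0264) and Ccl2 (2.22, adjusted p = 0.0432) both passed. That made 4 of 21 members called, where 2037 of 16341 genes were. Vcam1 also passed without BPH/2J vehicle replicate 3, 4 or 5 or BPH/2J Cmpd17b replicate 5, all of which keep replicate 2 in the fit, and Ccl2 passed with DESeq2.

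The other adhesion molecules and cytokines did not pass in the vehicle arm. Icam2 averaged 5.71 ± 1.45 CPM in BPH/2J vehicle kidneys and 4.33 ± 0.883 CPM in BPN/3J vehicle kidneys (SD, n = 5 and 4), a log2 fold change of 0.40 (adjusted p = 0.228). Sele, with 110 counts over the 18 libraries, had a wide 95% interval of −1.32 to 3.04 around 0.86. Il15 averaged 11.5 ± 2.62 CPM in BPH/2J vehicle kidneys and 16.0 ± 2.39 CPM in BPN/3J vehicle kidneys (−0.49, adjusted p = 0.167). For Il18, Il33, an alarmin of stressed cells, and Il1b, the log2 fold changes were 0.31, −0.14 and −0.28, with adjusted p of at least 0.421.

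Among the remaining chemokines in the vehicle arm, Cxcl14 averaged 4.93 ± 2.97 CPM in BPH/2J kidneys and 2.64 ± 0.829 CPM in BPN/3J kidneys (SD, n = 5 and 4), a log2 fold change of 0.91 (adjusted p = 0.147). The 3 abundant chemokines had narrow intervals around 0: 0.06 (95% interval −0.16 to 0.28) for Cx3cl1, 0.09 (−0.31 to 0.48) for Cxcl12 and −0.18 (−0.55 to 0.18) for Cxcl16. The CXCR3 ligands Cxcl9 and Cxcl10, induced by interferon, were at 0.04 and 0.06 (adjusted p = 0.973 and 0.918). Ccl5, made by T cells, Ccl6, a chemokine of rodent myeloid cells, Cxcl1, a neutrophil attractant, and Cxcl13, a B cell attractant, did not pass either (0.88, −0.42, 0.90 and 0.18, adjusted p of at least 0.393). Without BPH/2J vehicle replicate 2 the values were −1.12 for Ccl6, −0.33 for Cxcl16, 0.40 for Cxcl1, −0.22 for Cxcl10 and −0.20 for Cxcl9. None of these passed (adjusted p of at least 0.156).

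**Figure D2:**
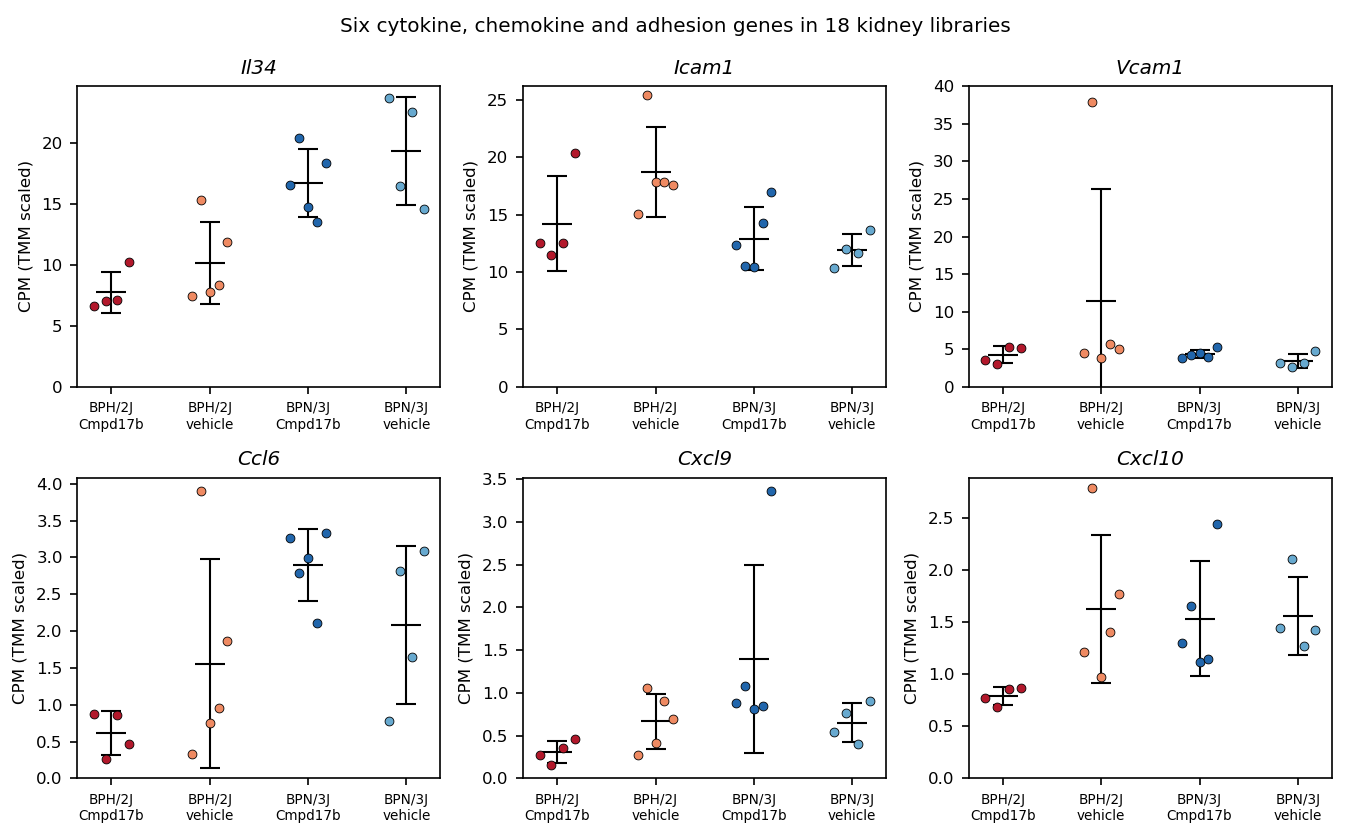
Level (CPM, TMM scaled) of 6 members in each kidney library, by strain and treatment, with bars for mean and SD (the lower bar of Vcam1 in vehicle BPH/2J runs below the axis). Il34 lies lower in both BPH/2J groups, and the single high points of Vcam1 (38.0 CPM) and Ccl6 (3.90 CPM) in vehicle BPH/2J are replicate 2.

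Between the strains under Cmpd17b, Il34, Cxcl9 and Ccl6 were lower in BPH/2J kidneys, and no member was called higher. The 3 of 21 called compare with 10.4% of all genes (1701 genes). The median log2 fold change was −0.17 over the members and 0.01 over all genes. Groups did not overlap for 4 members, all lower in BPH/2J (Il34, Cxcl9, Ccl6 and Cxcl10), where 12.8% of all genes had groups apart.

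Il34 levels in Cmpd17b-treated BPH/2J kidneys were 6.59, 7.04, 7.12 and 10.3 CPM, against 16.6, 20.4, 14.7, 13.5 and 18.3 CPM in Cmpd17b-treated BPN/3J kidneys. The strains did not overlap, and replicate 5 was the highest BPH/2J library. Il34 stood at a log2 fold change of −1.11 (SE 0.223, adjusted p = 0.00242), or 0.462 of the BPN/3J level (95% interval 0.334 to 0.640). Il34 passed in both arms whichever of the 18 libraries was left out. The gene overlaps the antisense genes Gm15894 and Gm15895 in the GENCODE vM21 annotation, and Gm15894 was at most 0.138 CPM in any library.

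Cxcl9 levels were 0.268, 0.151, 0.350 and 0.461 CPM in Cmpd17b-treated BPH/2J kidneys, against 0.887, 1.08, 0.810, 0.849 and 3.36 CPM in Cmpd17b-treated BPN/3J kidneys. Every BPH/2J library was below every BPN/3J library, and BPN/3J replicate 5 was far above the rest of its group. The difference was −2.20 on the log2 scale (SE 0.536, adjusted p = 0.0109), and −1.58 without that library (adjusted p = 0.0301). Cxcl10 followed the same order, with 0.770, 0.681, 0.857 and 0.865 CPM in BPH/2J and 1.30, 1.66, 1.12, 1.14 and 2.44 CPM in BPN/3J kidneys. Its log2 fold change of −0.95 did not pass (SE 0.322, adjusted p = 0.0699). It passed with DESeq2 (adjusted p = 0.0416) and without BPH/2J vehicle replicate 2 (adjusted p = 0.0394).

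Ccl6 levels were 0.870, 0.265, 0.857 and 0.461 CPM in Cmpd17b-treated BPH/2J kidneys, against 3.26, 2.79, 2.99, 2.11 and 3.33 CPM in Cmpd17b-treated BPN/3J kidneys. Every BPH/2J library was below every BPN/3J library. Ccl6 was lower, with a log2 fold change of −2.22 (SE 0.581, adjusted p = 0.0175) that did not pass without BPH/2J Cmpd17b replicate 3 (−1.96, adjusted p = 0.0596). The left-out library held Ccl6 at 6.91 CPM, and with it in the fit the value was −0.33 (adjusted p = 0.831). Ccl6 overlaps E230016K23Rik on the opposite strand, and without a stated strand setting the reads of the pair cannot be told apart. In all, 9 tested members overlap genes on the opposite strand: Ccl6, Il1b, Il18, Il34, Ccl2, Cxcl10, Cxcl16, Icam1 and Vcam1. The same limit holds for each of them. Art3, which overlaps Cxcl10, reached 3.58 CPM, and Bco2, which overlaps Il18, reached 28.7 CPM. Both lay above the highest level of the member. The part of overlapping genes in the member values was not tested. E230016K23Rik ran from 0.115 to 0.757 CPM in Cmpd17b-treated BPH/2J kidneys and from 1.63 to 2.36 CPM in Cmpd17b-treated BPN/3J kidneys (log2 fold change −2.21, adjusted p = 0.000234). Under vehicle it was lower too (−1.04, adjusted p = 0.0368), where Ccl6 was at −0.42 (adjusted p = 0.659) with BPH/2J vehicle replicate 2 and at −1.12 without it (unadjusted p = 0.0290, adjusted p = 0.156).

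The summed leukocyte markers were also lower in BPH/2J kidneys under Cmpd17b. Their sum was 24.5 to 36.5 CPM in Cmpd17b-treated BPH/2J kidneys and 39.6 to 59.9 CPM in Cmpd17b-treated BPN/3J kidneys, with no overlap. Of 16 leukocyte markers tested, 2 were lower in BPH/2J in that arm, where 10.4% of all genes were called. Among these was Cd3e of T cells (−2.34, adjusted p = 0.0183). It ran from 0.0389 to 0.134 CPM in BPH/2J and from 0.251 to 0.645 CPM in BPN/3J kidneys. The BPH/2J values lay around the 0.0732 to 0.140 CPM to which 3 counts correspond, a range on library totals without TMM scaling. Not all markers were lower. Cd8a of cytotoxic T cells averaged 1.25 CPM in Cmpd17b-treated BPH/2J and 0.566 CPM in Cmpd17b-treated BPN/3J kidneys, and Cd14 3.25 and 2.48 CPM. The median log2 fold change of the 16 tested was −0.60. Under vehicle the sums were 24.0 to 150 CPM in BPH/2J and 29.6 to 44.4 CPM in BPN/3J kidneys. In BPH/2J vehicle kidneys other than replicate 2 they were 24.0 to 41.8 CPM. Of the 16 tested, 1 marker, Cd8a, was higher (1.40, adjusted p = 0.0490), where 10.8% of all genes were called. Without BPH/2J vehicle replicate 2, 1 was higher and 1 lower, where 1505 of 16310 genes were called. The median log2 fold change of the markers under vehicle was 0.15 with that library and −0.24 without it. Under Cmpd17b the fit without it called 3 lower, where 1635 of 16310 genes were called. None of the 17 markers was at 0 in all 18 libraries. Fewer cells of a type and less RNA per cell cannot be told apart in whole kidney, and the part of leukocyte number in the chemokine values was not tested.

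The remaining members did not pass in the Cmpd17b arm. Their log2 fold changes ran from −0.28 (Il15) to 0.78 (Cxcl13). Icam1, called under vehicle, averaged 14.2 ± 4.12 CPM in Cmpd17b-treated BPH/2J kidneys and 12.9 ± 2.77 CPM in Cmpd17b-treated BPN/3J kidneys (SD, n = 4 and 5). Its value was 0.14 (adjusted p = 0.695), with an interval of −0.26 to 0.53. Vcam1 was at 3.58, 2.99, 5.26 and 5.19 CPM in BPH/2J and at 3.83, 4.29, 4.44, 3.95 and 5.33 CPM in BPN/3J kidneys, and the groups overlapped (−0.04, adjusted p = 0.969). Cx3cl1 was at −0.26 (95% interval −0.48 to −0.05, adjusted p = 0.124). Csf1 was at −0.15 (adjusted p = 0.662) and Csf1r at −0.07 (adjusted p = 0.828).

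**Figure D3:**
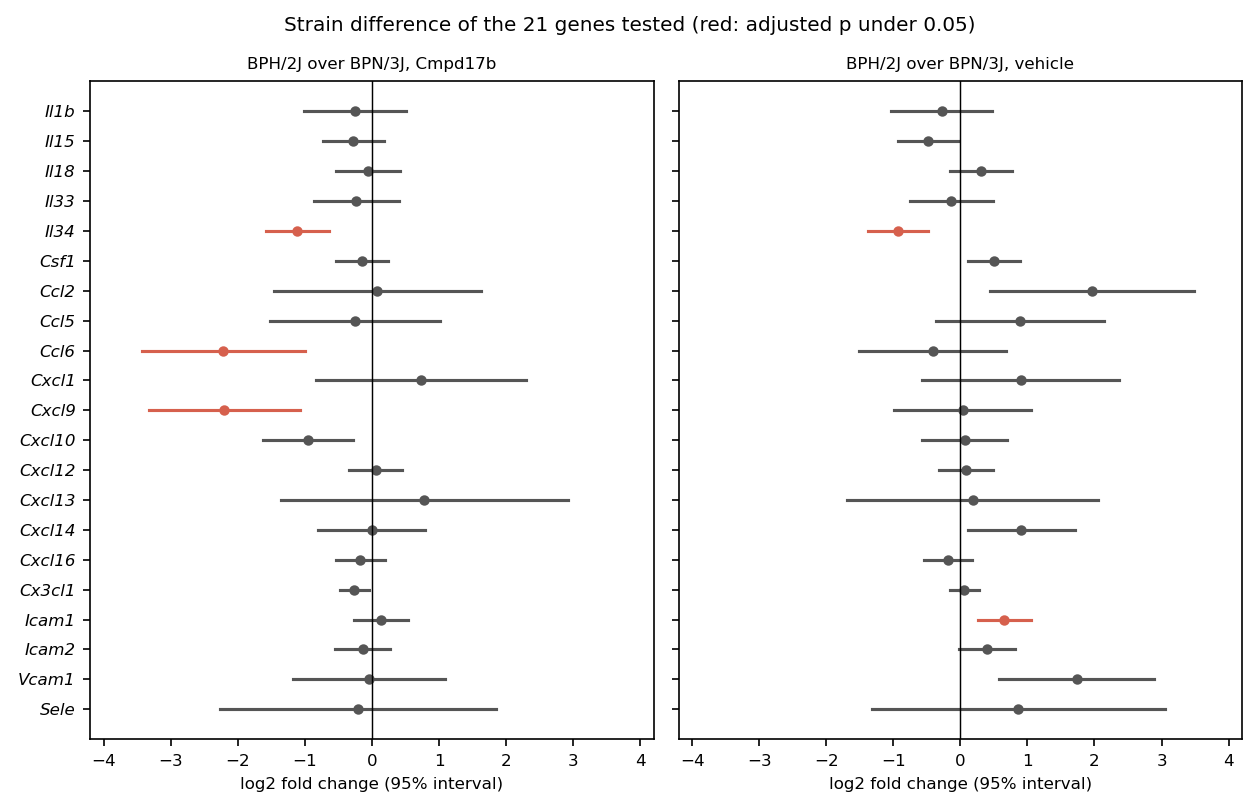
Log2 fold change of BPH/2J over BPN/3J with its 95% interval for the 21 tested members, under Cmpd17b (left) and vehicle (right), red where the adjusted p is under 0.05. Il34 is red on both sides (−1.11 and −0.93), Cxcl9 and Ccl6 on the left and Icam1 on the right.

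For Cmpd17b against vehicle in BPH/2J kidneys, 0 of the 21 members were called, where 0.164% of all genes (27 genes) were. By edgeR, 6 of the 21 members had an unadjusted p under 0.05, as did 608 of the 16421 genes tested. DESeq2 and limma-voom also called 0 members, although DESeq2 gave no p for Vcam1 in any comparison. The log2 fold change was below 0 for 17 of the 21, with a median of −0.39 over the members and −0.01 over all genes. Without BPH/2J vehicle replicate 2 it was below 0 for 16, the members' median was −0.21 and 1 member, Cxcl10, had an unadjusted p under 0.05. Cxcl10 was the member whose groups did not overlap, where 0.932% of all genes had groups apart.

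Cxcl10 levels in Cmpd17b-treated BPH/2J kidneys, 0.681 to 0.865 CPM, lay below the 1.21, 2.78, 0.970, 1.41 and 1.77 CPM of vehicle BPH/2J kidneys. The log2 fold change was −1.04 (95% interval −1.72 to −0.36, adjusted p = 0.892). Vcam1 was at −1.43 and came to −0.17 without BPH/2J vehicle replicate 2. Ccl6, which ranged from 0.332 to 3.90 CPM in vehicle BPH/2J kidneys, was at −1.33, Cxcl9 at −1.14, Il18 at −0.49 and Icam1 at −0.40, each with an unadjusted p between 0.0336 and 0.0476 and an adjusted p of 1. Without replicate 2, Ccl6 was at −0.62 (unadjusted p = 0.230), Icam1 at −0.27 (0.164) and Cxcl10 at −0.75 (0.0205). Among the abundant members the intervals were narrow, at −0.41 to 0.02 for Cx3cl1, −0.29 to 0.44 for Cxcl16 and −0.53 to 0.27 for Cxcl12. Il34 was at −0.39 (−0.86 to 0.07). Il1b had the highest value, 0.26 (−0.51 to 1.03).

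All 6 heart muscle markers were higher with Cmpd17b than with vehicle in BPH/2J kidneys, where 0.164% of all genes were called. Myh6 ran from 26.6 to 33.9 CPM in them and did not exceed 1.64 CPM elsewhere, at most 0.239% of its level in the left-out library. The same share of that library's own levels amounts to 0.428 CPM for Cxcl12, 0.115 CPM for Csf1, 0.0165 CPM for Ccl6, 0.00509 CPM for Il34 and 0.000694 CPM for Cxcl9. That share was taken from Myh6 alone, and other heart muscle markers give other shares. The part of such transcripts in the member values was not tested.

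For Cmpd17b against vehicle in BPN/3J kidneys, 0 of the 21 members were called, as were 0.0% of all genes. By edgeR 1 member, Cxcl9, had an unadjusted p under 0.05, as did 415 of the 16421 genes tested. DESeq2 and limma-voom called 0 members. The log2 fold change was above 0 for 13 of the 21, with a median of 0.13 over the members and 0.00 over all genes. Cxcl9, at 0.887, 1.08, 0.810, 0.849 and 3.36 CPM with Cmpd17b, was at 0.538, 0.762, 0.401 and 0.911 CPM with vehicle, and the groups overlapped. Its log2 fold change was 1.09 (unadjusted p = 0.0367, adjusted p = 1), and 0.47 without the library at 3.36 CPM (unadjusted p = 0.262). Ccl6 was at 0.47 (95% interval −0.61 to 1.56), Icam1 at 0.12 (−0.28 to 0.51), Vcam1 at 0.35 (−0.79 to 1.48), Il34 at −0.21 (−0.66 to 0.24) and Cxcl10 at −0.03 (−0.66 to 0.61).

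**Figure D4:**
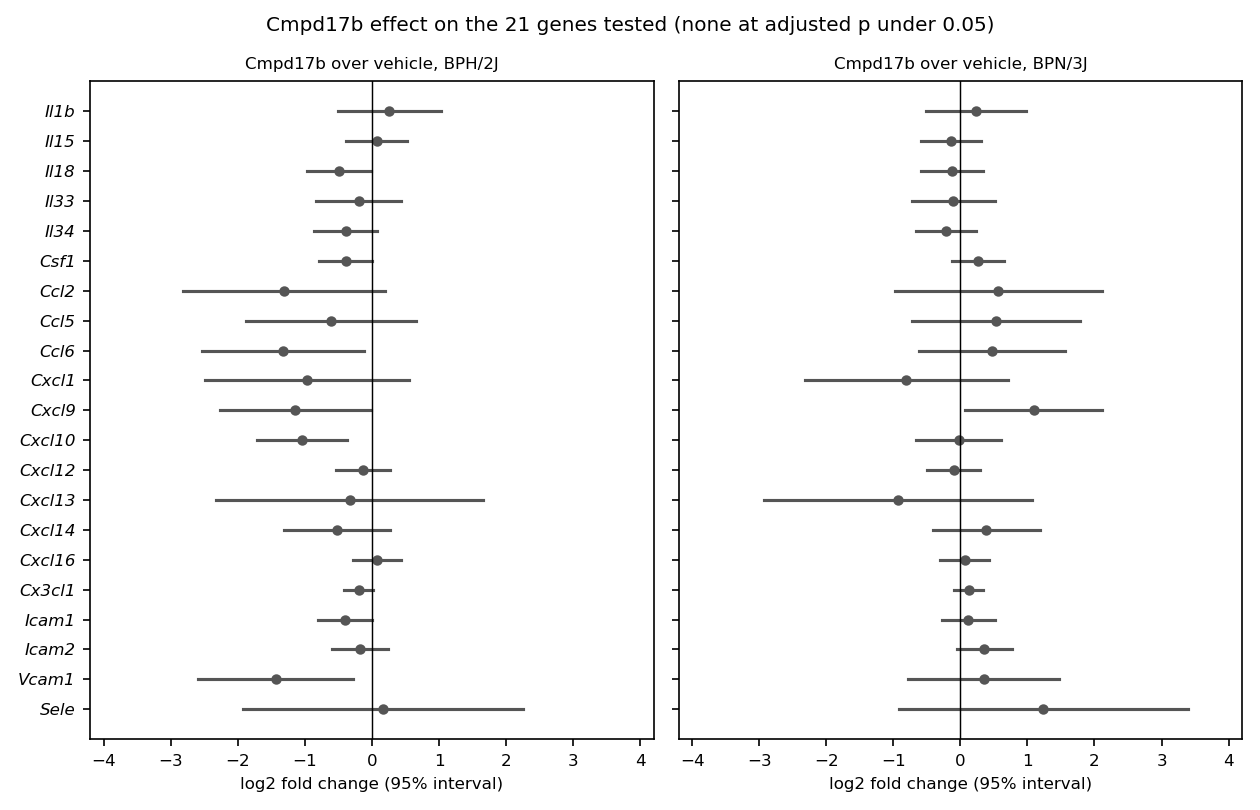
Log2 fold change of Cmpd17b over vehicle with its 95% interval for the 21 tested members, in BPH/2J (left) and BPN/3J kidneys (right). No member passed, and most values lie left of 0 in BPH/2J (17 of 21) and right of 0 in BPN/3J (13 of 21).

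No member passed the test of whether the Cmpd17b effect differed between the strains, which is also the test of whether the strain difference differed between the arms. The interaction, the effect in BPH/2J minus that in BPN/3J, was called for 0 of 21 members, where 0.0304% of all genes (5 genes) were called. By edgeR 6 of the 21 members had an unadjusted p under 0.05, as did 529 of the 16421 genes tested. All 6 members had a negative value, and DESeq2 and limma-voom called 0. Cxcl9 was at −2.23 (95% interval −3.75 to −0.72, unadjusted p = 0.00626), and −1.62 without BPN/3J Cmpd17b replicate 5. Ccl6 was at −1.80, Vcam1 at −1.78, Cxcl10 at −1.01, Csf1 at −0.65 and Cx3cl1 at −0.32. Without BPH/2J vehicle replicate 2 these 5 came to −1.10, −0.52, −0.73, −0.54 and −0.25 in the same order, none with an unadjusted p under 0.05, which Cxcl9 alone kept (unadjusted p = 0.0143). Icam1 was at −0.52 (−1.08 to 0.04), and every adjusted p rounded to 1. These comparisons share their groups with those above and are not independent of them.

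Genes of the pathways around the members were read from lists of receptors, leukocyte ligands, inhibitors and NF-κB components. Of 15 cytokine receptors tested, 2 were lower in BPH/2J in both arms, where 10.4% of all genes were called under Cmpd17b and 10.8% under vehicle. Il10rb, a subunit of the interleukin 10 receptor, ran from 16.4 to 20.6 CPM in Cmpd17b-treated BPH/2J and from 26.5 to 33.1 CPM in Cmpd17b-treated BPN/3J kidneys (−0.72, adjusted p = 0.000572). Under vehicle it ran from 15.8 to 23.4 CPM in BPH/2J and from 28.9 to 37.4 CPM in BPN/3J kidneys (−0.58, adjusted p = 0.00356). Il1rap, the accessory chain of the interleukin 1 and interleukin 33 receptors, was at −0.57 under Cmpd17b (adjusted p = 0.0323) and −0.67 under vehicle (adjusted p = 0.0111).

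Of 10 chemokine receptors tested, 2 were lower in BPH/2J under Cmpd17b (10.4% of all genes called) and 0 under vehicle (10.8%). Cxcr6, the receptor of Cxcl16, averaged 0.111 CPM in Cmpd17b-treated BPH/2J and 0.627 CPM in Cmpd17b-treated BPN/3J kidneys (−2.46, adjusted p = 0.0159). Its BPH/2J values, 0.0389 to 0.189 CPM, lay around the 0.0732 to 0.140 CPM to which 3 counts correspond on library totals without TMM scaling. The Cxcr6 fold change therefore rests on few counts. Ackr3, a scavenging receptor of Cxcl12, averaged 23.5 CPM and 43.7 CPM in the same groups (−0.89, adjusted p = 0.0297). Without BPH/2J vehicle replicate 2, Ccr2, named after its values had been seen, was also lower in both arms, making 3 and 1. In that fit 1635 of 16310 genes were called under Cmpd17b and 1505 under vehicle. Cxcl16 itself was at −0.17 under Cmpd17b and Cxcl12 at 0.06, neither called. Among 9 leukocyte ligands of the adhesion molecules and 7 soluble and decoy inhibitors tested, 0 passed in either arm.

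Of 14 NF-κB and inflammasome genes tested, 0 were called under Cmpd17b (10.4% of all genes called) and 3 were higher in BPH/2J under vehicle (10.8%). Nfkb2 averaged 13.9 CPM in BPH/2J vehicle and 9.55 CPM in BPN/3J vehicle kidneys (0.54, adjusted p = 0.0138). Relb, its partner, averaged 6.94 CPM in BPH/2J vehicle and 3.31 CPM in BPN/3J vehicle kidneys (1.07, adjusted p = 0.0219), and Rela averaged 27.6 CPM and 21.8 CPM in the same groups (0.34, adjusted p = 0.0482). Without BPH/2J vehicle replicate 2, Nfkb2 still passed (0.49, adjusted p = 0.0386), while Relb and Rela did not (adjusted p = 0.0644 and 0.109). That makes 1 of 14, where 1505 of 16310 genes were called. None of the genes in these 5 lists passed in either comparison of Cmpd17b with vehicle.

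Fibroblast and mural cell markers also differed in the vehicle comparison in which Icam1 was called. Of 11 fibroblast and mural cell markers, 7 were higher in BPH/2J vehicle than in BPN/3J vehicle kidneys, and 5 without replicate 2. In the comparison with replicate 2, 10.8% of all genes were called, and without it 1505 of 16310 genes. The 11 markers summed to 143 to 302 CPM in BPH/2J and 74.2 to 123 CPM in BPN/3J vehicle kidneys. Of 10 endothelial markers, 1 (Pecam1) was higher (0.76, adjusted p = 0.0225), near the share of all genes, and 0 passed without replicate 2. Endothelial sums, 218 to 376 CPM in BPH/2J and 189 to 309 CPM in BPN/3J vehicle kidneys, overlapped. Under Cmpd17b, 1 fibroblast and mural marker (Rgs5) and 0 endothelial markers were higher, where 10.4% of all genes were called. The part of these cell types in the Icam1 value was not tested.

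**Figure D5:**
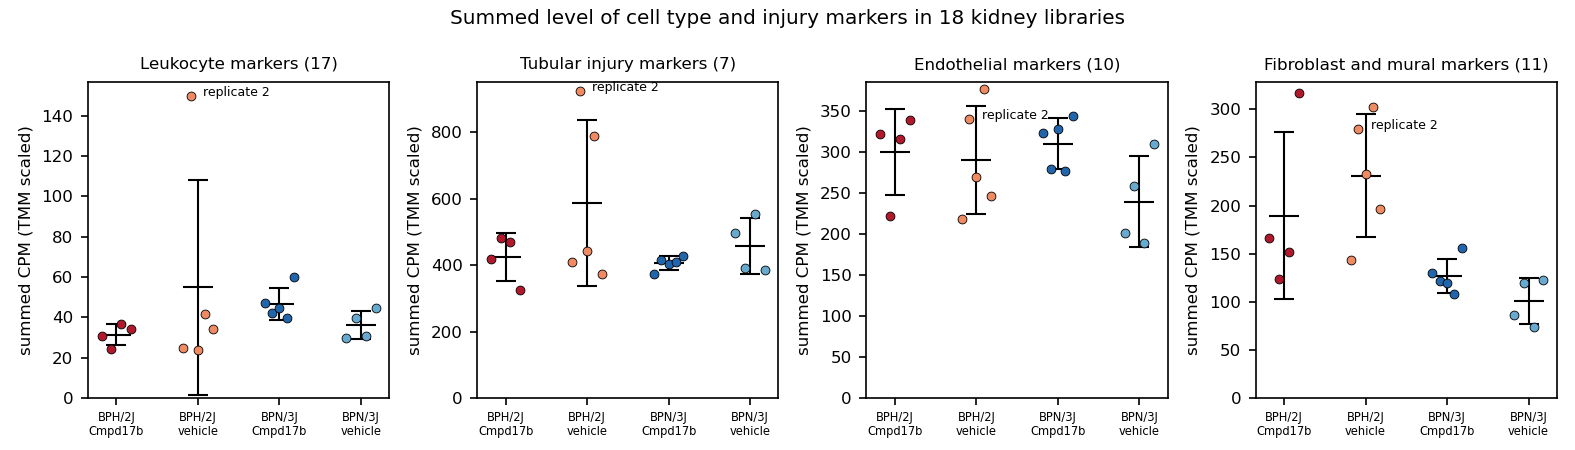
Summed level (CPM) of leukocyte, tubular injury, endothelial, and fibroblast and mural markers in each kidney library, by strain and treatment, with bars for mean and SD. BPH/2J vehicle replicate 2 is labelled and is far above the other libraries for leukocyte markers (150 CPM) and highest for injury markers (923 CPM).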

How the data were processed

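Polyadenylated RNA of mouse kidney was sequenced as read pairs on an Illumina NovaSeq, per the labels. The authors deposited a table of estimated counts per gene. The submitters' processing notes name Trim Galore 0.6.7 for trimming, STAR 2.7.9a for alignment and the build mm39 (GRCm39). The counting tool, its annotation and its strand setting are not given in the sources used. Per library, 4.63% to 10.1% of values were fractional, and all were rounded.

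The 18 libraries entered 1 fit of 4 groups in edgeR 4.0.16 (R 4.3.3, quasi-likelihood F-test, robust, TMM, filterByExpr with a minimum count of 10 and total of 15), without covariates, since all libraries carry the same batch label. P-values were adjusted by Benjamini-Hochberg over 16421 genes, and a gene was called under 0.05. Levels are CPM on the TMM scale of the 18 libraries. In the left-out library they are relative to its own total. Differences are log2 fold changes. Exon lengths and overlapping genes came from GENCODE vM21 (GRCm38) and promoters from RefSeq.

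Alternatives were DESeq2 1.42.0, limma-voom (limma 3.58.1), DESeq2 size factors in edgeR, all genes kept, genes kept at 1 CPM in 4 libraries, the compared groups alone, a fit that is not robust, all 19 libraries, and leaving out each library. The test was checked on simulated data.

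The members and lists were chosen with earlier results of these data known. Every member is named, members at 1 CPM or more or called in any comparison have values, and up to 4 called genes of each list are named, except a few that are not reported here. Marker lists covered leukocytes, endothelium, fibroblasts and mural cells, kidney epithelium, tubular injury, urothelium, heart muscle, fat, adrenal cortex and red blood cells. Counts of called genes in the lists without BPH/2J vehicle replicate 2 were chosen after that library's profile was known. Figures were drawn with matplotlib 3.10.9.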

Additional observations from a re-analysis of the deposited data

Results flagged for a closer look

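Within the 4 groups, 84 sets of values (21 members in 4 groups) were examined for a library far from the rest of its group, and 10 were found, where chance flags about 1 in 20. BPH/2J vehicle replicate 2 accounted for 4. It held Vcam1 at 38.0 CPM against 3.81 to 5.74 CPM in the rest of its group, Ccl2 at 2.90 CPM against 0.181 to 0.703 CPM, Icam1 at 25.4 CPM against 15.1 to 17.8 CPM, and Il33 at 4.95 CPM against 2.35 to 2.95 CPM.

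BPH/2J Cmpd17b replicate 5 held Icam1 at 20.4 CPM against 11.5 to 12.5 CPM in its group, and Il34 at 10.3 CPM against 6.59 to 7.12 CPM. BPH/2J vehicle replicate 4 held Cxcl13 at 0.731 CPM against 0.0605 to 0.205 CPM and Sele at 0.675 CPM against 0 to 0.147 CPM. In the same library the urothelial markers summed to 54.9 CPM, the fat markers to 202 CPM and the tubular injury markers to 789 CPM, and their part in these values was not tested. BPN/3J Cmpd17b replicate 5 held Cxcl9 at 3.36 CPM against 0.810 to 1.08 CPM. BPN/3J vehicle replicate 2 held Cx3cl1 at 38.0 CPM against 33.8 to 34.3 CPM.

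The Cmpd17b-treated BPH/2J library that was left out of the fits, with heart muscle transcripts in place of kidney ones, exceeded all 18 other libraries for 6 tested members. It held Cxcl12 at 179 CPM against at most 151 CPM, Csf1 at 48.0 CPM against at most 8.53 CPM and Icam2 at 16.1 CPM against at most 7.18 CPM. Cxcl14 was at 14.7 CPM against at most 9.70 CPM, Ccl6 at 6.91 CPM against at most 3.90 CPM and Sele at 1.32 CPM against at most 0.675 CPM.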

How the results depend on the processing

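Under vehicle, 2 members were called between the strains (1766 of 16421 genes), against 0 with all 19 libraries (566 of 16522 genes). Over all 8 settings 0 to 3 members were called, beside 566 to 2343 genes. Leaving out each library gave 1 to 4, and 4 where vehicle BPH/2J mouse 1 was absent (2037 of 16341 genes). It gave 1 where vehicle BPH/2J mouse 2 or vehicle BPN/3J mouse 1, 2 or 3 was absent, beside 1226 to 1505 genes. Under Cmpd17b, 3 were called (1701 of 16421 genes), against 2 to 4 over 8 settings (1330 to 2251 genes). With a library left out, 2 to 4 were called (1290 to 1749 genes). The comparisons of Cmpd17b with vehicle and the interaction gave 0 throughout, where at most 41 genes were called. No called value changed sign. Among members not called, the sign changed under at least 1 setting for 7 of 19 under vehicle, 11 of 18 under Cmpd17b, 10 of 21 for Cmpd17b in BPH/2J, 5 of 21 in BPN/3J and 13 of 21 for the interaction. Cxcl9 was not tested under the filter of 1 CPM, and the compared groups alone cannot give an interaction. The causes were not tested. No paired analysis was possible because the labels give no shared replicate numbers. Depth limits the 11 untested members and the wide intervals of Sele and Cxcl13.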

Other observations

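Kidney epithelium markers summed to 7572 to 8435 CPM in Cmpd17b-treated BPH/2J kidneys and 6894 to 8641 CPM in vehicle BPH/2J kidneys. In BPN/3J kidneys they summed to 7073 to 8304 CPM with Cmpd17b and 7252 to 8196 CPM with vehicle. Red blood cell markers summed to 877 to 1293 CPM in Cmpd17b-treated BPH/2J kidneys and 486 to 696 CPM in Cmpd17b-treated BPN/3J kidneys, without overlap. In that arm 3 of 4 were higher in BPH/2J, where 10.4% of all genes were called. Under vehicle their sums were 379 to 1278 CPM in BPH/2J and 437 to 580.3 CPM in BPN/3J kidneys, and 1 of 4 was higher, where 10.8% of all genes were called. Adrenal cortex markers did not exceed 9.97 CPM, fat markers 202 CPM and urothelial markers 54.9 CPM in any of the 18 libraries. None of the tested ones passed in the strain comparisons or in those of Cmpd17b with vehicle, nor did any of the 7 tubular injury markers.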
